A study of Mus musculus with 15 samples.

Results

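Secreted Wnt antagonists were examined as a family of 9 genes: the secreted frizzled-related proteins Sfrp1, Sfrp2, Sfrp4 and Sfrp5, their relative Frzb (also known as Sfrp3), the Dickkopf genes Dkk1, Dkk2 and Dkk3, and Wif1. They were taken by gene symbol from transcript clusters annotated with 1 symbol, and all 9 were found, with 1 transcript cluster each, among 18718 genes measured. The cells came from C57BL/6 mice 2 weeks old and carry no genetic change or drug treatment in the labels. All were mesenchymal cells sorted for PDGFRβ, and the 5 groups were PDPN+BP3- and PDPN- cells of the thymus and PDPN+BP3-, PDPN+BP3+ and PDPN- cells of pooled inguinal, axillary and brachial lymph nodes. PDPN is podoplanin, BP3 is encoded by Bst1, and the PDPN- cells of each tissue were also selected for Ly51, encoded by Enpep. Each group had 3 arrays, labelled as biological replicates from 3 experiments. Every array measured RNA of a pool of mice, 3 for thymus and 10 to 11 for lymph node, so tissue and the size of the pool cannot be told apart.

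Wnt proteins are secreted lipid-modified signals that bind Frizzled receptors, together with the co-receptors Lrp5 and Lrp6 when the signal runs through beta-catenin. The frizzled-related proteins carry a cysteine-rich domain like that of Frizzled and can bind Wnt proteins outside the cell, and Wif1 binds Wnt proteins through a domain of its own. Dkk1 and Dkk2 bind Lrp5 and Lrp6 instead, and Dkk3 is a divergent relative whose action on Wnt signalling is less settled. In lymphoid organs, fibroblasts and perivascular cells are the mesenchymal neighbours of developing and resting lymphocytes, and Wnt signals act on thymocytes, epithelium and the stroma itself.

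RefSeq promoter windows (GRCm38.p6, 250 bases before to 50 bases after the start) were matched by symbol for 6 of the 9 genes. The windows of Sfrp2, Dkk2 and Frzb are shown because these genes differed between the sorted groups and did so in unlike patterns. Capitals mark matches, on either strand, to the letters CTTTGA (the core bound by TCF and LEF factors), to those of the GC box, GGGCGG, to those of the TATA box, which read TATAAA, or to the letters CCAAT, and no matches overlap here, although CCAAT on the minus strand abuts a GC box in Dkk2. Sfrp2 lies at chr3:83766071-83766370 on the plus strand, Dkk2 at chr3:132085042-132085341 on the plus strand and Frzb at chr2:80447347-80447646 on the minus strand.
Sfrp2: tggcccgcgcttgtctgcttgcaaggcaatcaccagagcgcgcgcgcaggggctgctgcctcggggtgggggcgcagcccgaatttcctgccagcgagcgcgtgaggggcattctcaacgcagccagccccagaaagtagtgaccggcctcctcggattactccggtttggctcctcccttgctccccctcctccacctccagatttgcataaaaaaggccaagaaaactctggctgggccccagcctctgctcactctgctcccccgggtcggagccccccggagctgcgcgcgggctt
Dkk2: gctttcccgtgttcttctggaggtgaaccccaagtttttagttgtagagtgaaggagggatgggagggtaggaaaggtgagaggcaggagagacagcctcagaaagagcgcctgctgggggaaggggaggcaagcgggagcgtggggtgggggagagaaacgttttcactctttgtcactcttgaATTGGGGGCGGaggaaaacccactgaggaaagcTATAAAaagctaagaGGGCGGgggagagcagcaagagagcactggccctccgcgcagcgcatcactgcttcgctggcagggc
Frzb: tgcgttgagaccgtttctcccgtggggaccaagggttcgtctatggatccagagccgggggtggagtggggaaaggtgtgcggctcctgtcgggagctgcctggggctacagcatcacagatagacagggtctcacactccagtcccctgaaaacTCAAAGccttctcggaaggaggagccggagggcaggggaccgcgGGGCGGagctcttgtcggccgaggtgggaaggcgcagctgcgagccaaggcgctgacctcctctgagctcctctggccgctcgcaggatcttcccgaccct
The Sfrp2 window held none of these letters and 22 CG dinucleotides. In the Dkk2 window TATAAA begins 32 bases before the start, with GGGCGG in 2 places, the reverse of CCAAT in 1 place and 11 CG dinucleotides. The Frzb window held CTTTGA once, on the reverse strand, GGGCGG once and 20 CG dinucleotides. Of all 32851 promoter windows of this length, 16.0% held CTTTGA, 35.7% GGGCGG, 13.6% TATAAA and 37.4% CCAAT on either strand, and the median number of CG dinucleotides was 7. A match describes letters only.

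All levels are RMA signals on a log2 scale, and a difference of 1 is a doubling of signal. Levels of different genes depend on their probes and were not set against each other. Of the sort genes, Pdpn and Bst1 lay on the side of their labels. Pdpn averaged 8.16 to 9.11 in the PDPN+ groups against 3.01 and 3.41 in the PDPN- groups. Bst1 averaged 8.74 in PDPN+BP3+ cells against 2.18 to 3.30 elsewhere. The 2 other sort genes, Enpep and Pdgfrb, were lower in PDPN+ than in PDPN- cells of the same tissue (limma, adjusted p under 0.05). This held for PDPN+BP3- cells of each tissue and for PDPN+BP3+ cells, although all cells were sorted for PDGFRβ. Levels of these 2 genes are given for the PDPN- groups only. Enpep averaged 7.69 in lymph node and 8.07 in thymus PDPN- cells, and Pdgfrb 10.33 and 10.61. All 7 fibroblast markers and all 8 pericyte and smooth muscle markers were measured. The mean of the fibroblast markers was 10.07 to 10.28 on the PDPN+BP3- arrays, 8.55 to 8.78 on the PDPN+BP3+ arrays, 7.87 to 7.92 on the lymph node PDPN- arrays and 5.84 to 6.17 on the thymus PDPN- arrays. The mean of the pericyte markers was 9.30 to 9.91 on the PDPN- arrays and 6.09 to 7.47 on the others. The lowest median signal of an array was 3.58, in thymus PDPN+BP3- replicate 1 (the other arrays, 3.77 to 3.885), and all 37 pairs of gene and comparison called below kept their call and sign without it.

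**Figure D1:**
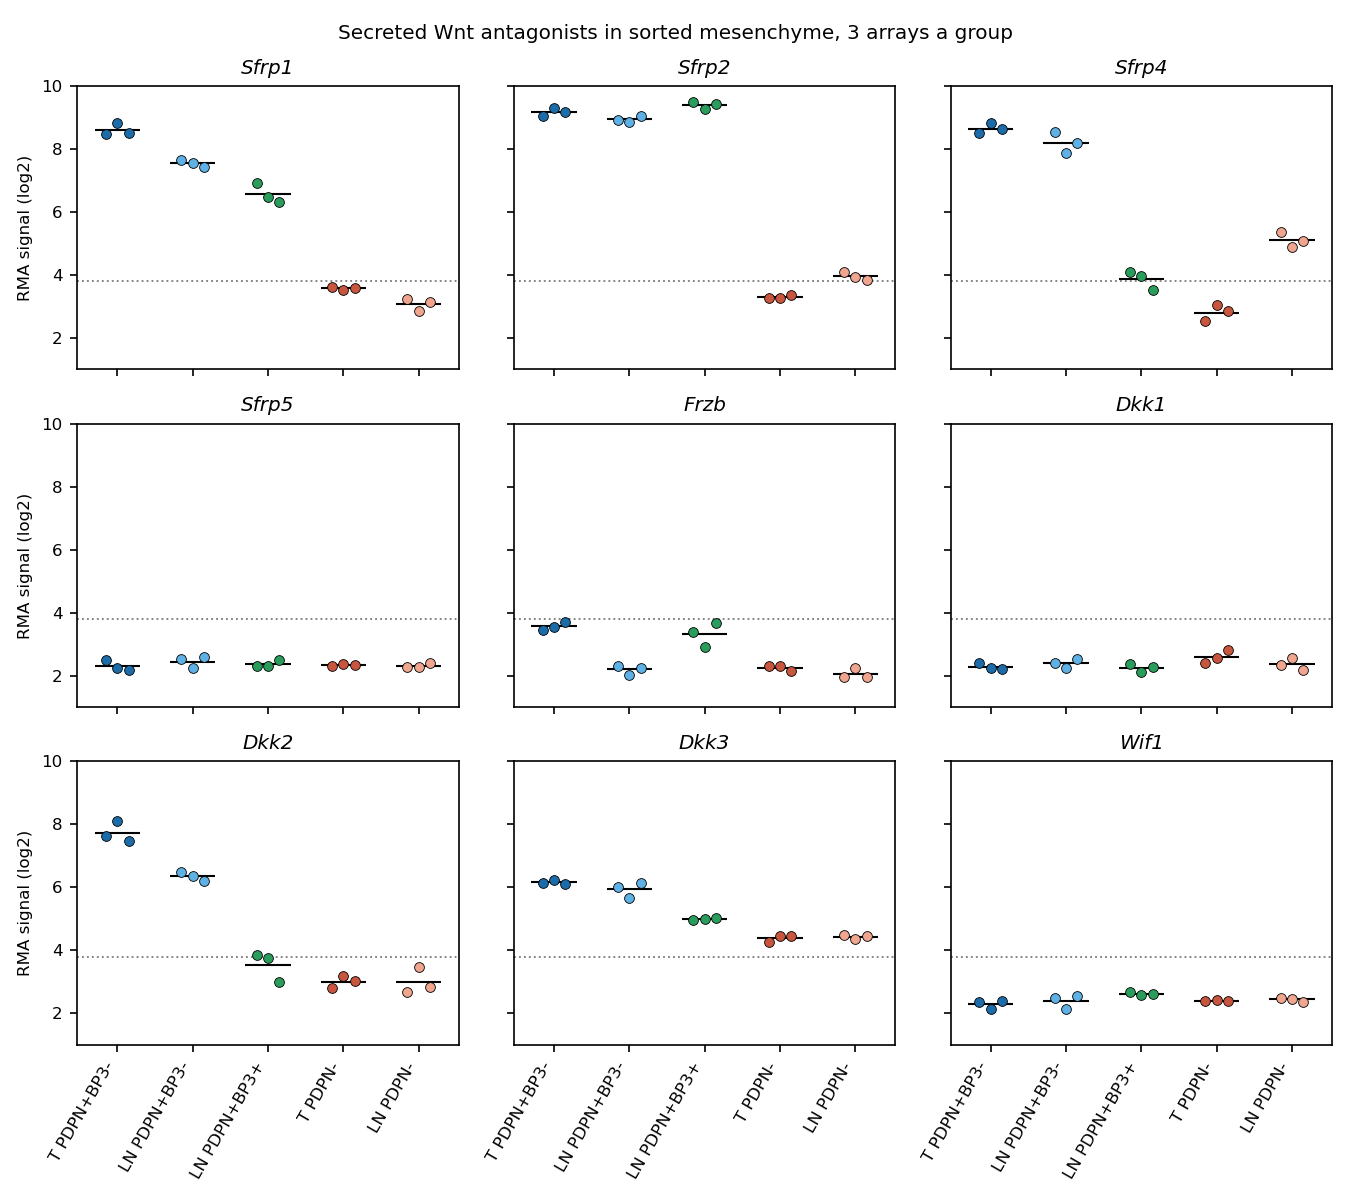
RMA signal (log2, vertical axis) of each of the 9 genes on every array, by sorted group (T, thymus; LN, lymph node); points are arrays, bars are group means and the dotted line is the median of the whole table, 3.80. Sfrp2 is high in all PDPN+ groups, Sfrp1 steps down across them, and Sfrp4 and Dkk2 are high in the PDPN+BP3- groups only. Frzb, Sfrp5, Dkk1 and Wif1 stay below the dotted line on every array.

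Sfrp2, a frizzled-related protein abundant in many fibroblasts, separated podoplanin-positive from podoplanin-negative mesenchyme in every group. Its signal was 9.04, 9.29 and 9.19 on the thymus PDPN+BP3- arrays, 8.91, 8.85 and 9.05 on the lymph node PDPN+BP3- arrays and 9.49, 9.26 and 9.42 on the lymph node PDPN+BP3+ arrays. It was 3.28, 3.28 and 3.35 on the thymus PDPN- arrays and 4.08, 3.93 and 3.85 on the lymph node PDPN- arrays. The order of means was lymph node PDPN+BP3+ (9.39 ± 0.12, SD, n = 3), thymus PDPN+BP3- (9.17 ± 0.13), lymph node PDPN+BP3- (8.94 ± 0.10), lymph node PDPN- (3.95 ± 0.12) and thymus PDPN- (3.30 ± 0.04). Arrays of neighbouring groups among the 3 PDPN+ groups overlapped, and after cyclic loess between arrays thymus PDPN+BP3- came before lymph node PDPN+BP3+. No array of a PDPN- group came near them.

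Sfrp1 had the same upper and lower sides, but its PDPN+ groups stood apart from each other. The thymus PDPN+BP3- arrays read 8.49, 8.81 and 8.52, the lymph node PDPN+BP3- arrays 7.64, 7.57 and 7.44, and the lymph node PDPN+BP3+ arrays 6.92, 6.46 and 6.31. The PDPN- arrays read 3.63, 3.51 and 3.60 in thymus and 3.23, 2.84 and 3.15 in lymph node. The means fell in the order 8.61 ± 0.18, 7.55 ± 0.10, 6.56 ± 0.32, 3.58 ± 0.06 and 3.07 ± 0.21 (SD, n = 3), and no neighbouring groups overlapped.

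Sfrp4, a frizzled-related protein known from connective tissue and bone, was high in PDPN+BP3- cells of each tissue and not in PDPN+BP3+ cells. The thymus PDPN+BP3- arrays read 8.51, 8.81 and 8.62 and the lymph node PDPN+BP3- arrays 8.54, 7.86 and 8.18, which overlap. The lymph node PDPN- arrays, at 5.36, 4.90 and 5.09, all lay above the PDPN+BP3+ arrays, at 4.09, 3.98 and 3.52. Thymus PDPN- cells were lowest, at 2.54, 3.04 and 2.84. Of the 6 members that varied between the subsets of the thymus, it was the 1 whose lymph node PDPN- arrays all lay above a podoplanin-positive group.

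Frzb signals were low throughout, with every group mean below the table's median of 3.80, where a signal need not stand above background. Even so, the thymus PDPN+BP3- arrays (3.45, 3.53 and 3.70) and the lymph node PDPN+BP3+ arrays (3.37, 2.92 and 3.66) overlapped each other and lay above all other arrays. Lymph node PDPN+BP3- cells, at 2.31, 2.03 and 2.25, overlapped the PDPN- arrays of thymus, at 2.30, 2.32 and 2.15, and of lymph node, at 1.95, 2.24 and 1.97.

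Dkk2, which binds Lrp5 and Lrp6, followed the PDPN+BP3- gate. Its signal was 7.64, 8.10 and 7.46 on thymus PDPN+BP3- arrays and 6.49, 6.37 and 6.19 on lymph node PDPN+BP3- arrays, without overlap. The PDPN+BP3+ arrays, at 3.86, 3.76 and 2.98, overlapped the PDPN- arrays, at 2.80, 3.18 and 3.02 in thymus and 2.68, 3.46 and 2.83 in lymph node. The spread within groups was the widest of the 9 genes here, with an SD of 0.48 for the PDPN+BP3+ arrays and 0.41 for those of lymph node PDPN- cells.

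Dkk3 was above the table's median in all 5 groups and varied less between them. Means were 6.16 ± 0.06 in thymus PDPN+BP3-, 5.95 ± 0.25 in lymph node PDPN+BP3-, 4.99 ± 0.04 in lymph node PDPN+BP3+, 4.43 ± 0.07 in lymph node PDPN- and 4.38 ± 0.10 in thymus PDPN- cells (SD, n = 3). The arrays of the PDPN+BP3- groups overlapped, as did those of the PDPN- groups, and PDPN+BP3+ arrays, at 4.95 to 5.02, lay between these pairs.

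Sfrp5, Dkk1 and Wif1 gave low signals on all 15 arrays. Sfrp5 ranged from 2.18 to 2.58, Dkk1 from 2.12 to 2.82 and Wif1 from 2.13 to 2.67. Their group means spanned 0.14, 0.34 and 0.33, against a largest SD within a group of 0.19, 0.21 and 0.22. Neighbouring groups overlapped in every case except Wif1, whose PDPN+BP3+ arrays (2.59 to 2.67) lay above its next group, lymph node PDPN- cells (2.37 to 2.49). No measure of background was used here, so whether these transcripts are present at all cannot be read from the values.

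How podoplanin-positive and podoplanin-negative mesenchyme differ was asked first within the thymus. Of the 9 genes 6 were higher in PDPN+BP3- cells and 0 lower, with a median difference of 1.78. Over all genes 28.5% passed, 1922 higher and 3415 lower with a median of -0.05, or 2698 higher and 2211 lower after cyclic loess and 2120 and 2343 without thymus PDPN+BP3- replicate 1. Sfrp2 was higher by 5.87 ± 0.11 (log2 difference ± SE of the limma fit, n = 3 a group, adjusted p 6.71e-15), Sfrp4 by 5.84 ± 0.19 (1.03e-12), Sfrp1 by 5.03 ± 0.15 (3.85e-13) and Dkk2 by 4.73 ± 0.24 (1.36e-10). Dkk3 was higher by 1.78 ± 0.12 (4.37e-09) and Frzb by 1.30 ± 0.16 (7.26e-06), and for each of the 6 the arrays of the groups did not overlap. The differences of Dkk1 (-0.31 ± 0.13, adjusted p 0.107), Wif1 (-0.11 ± 0.11, 0.553) and Sfrp5 (-0.03 ± 0.12, 0.88) did not pass. All 7 fibroblast markers were higher and all 8 pericyte markers lower in the same cells. Beside this comparison, 4 of 11 measured T lineage genes and 4 of 12 thymic epithelial genes were lower in PDPN+BP3- cells. The T lineage mean ranged from 4.0 to 5.24 over PDPN+BP3- arrays and from 5.32 to 5.79 over PDPN- arrays. Without replicate 1, which had the lowest T lineage mean, the same 6 members passed and no member's difference moved by more than 0.10.

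In the lymph node the same subsets gave 5 members higher and 0 lower, with a median of 1.52. Over all genes 23.1% passed, 2500 higher and 1832 lower with a median of -0.01. Sfrp2 was higher in PDPN+BP3- cells by 4.98 ± 0.11 (limma, adjusted p 7.24e-14), Sfrp1 by 4.48 ± 0.15 (2.75e-12), Dkk2 by 3.36 ± 0.24 (1.44e-08), Sfrp4 by 3.08 ± 0.19 (3.16e-09) and Dkk3 by 1.52 ± 0.12 (4.39e-08). Frzb differed by 0.14 ± 0.16 (adjusted p 0.616), with a 95% interval from -0.19 to 0.48. Fibroblast markers were higher in 7 of 7 cases and pericyte markers lower in 7 of 8. Endothelial genes were also higher in these PDPN+BP3- cells in 6 of 12 cases and lower in 0, with list means of 4.05 to 4.43 against 3.37 to 3.79 on PDPN- arrays, and their part in the result was not tested.

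**Figure D2:**
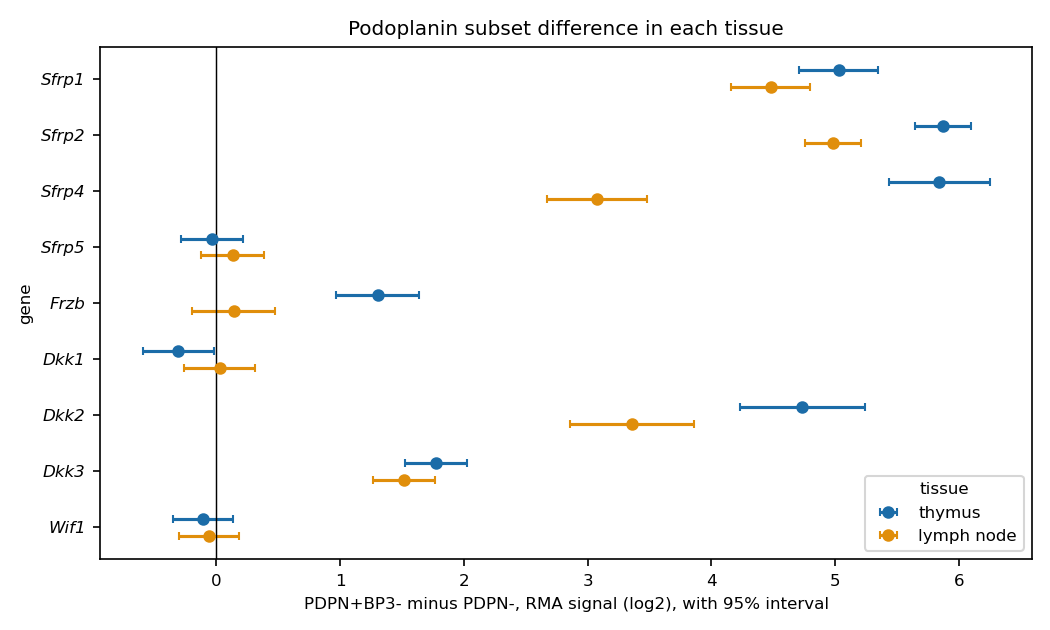
Difference between PDPN+BP3- and PDPN- cells (RMA signal, log2, horizontal axis) for each gene in thymus and lymph node; points are limma estimates and bars their 95% intervals (n = 3 arrays a group). The thymus interval of Sfrp2, Sfrp4, Frzb and Dkk2 lies wholly above the lymph node interval, whereas Dkk3 and Sfrp1 overlap.

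Whether this subset difference depended on the tissue was tested with an interaction term, lymph node minus thymus. It passed for 4 members, all smaller in lymph node, against 12.7% of all genes. Over all genes 1623 terms were positive and 758 negative with a median of 0.06, or 862 and 1215 after cyclic loess and 1146 and 918 without thymus PDPN+BP3- replicate 1, and the median of the 9 members was -0.55. For the same term 6 of 7 fibroblast markers were negative (median of the list -1.78), and 6 of 8 pericyte markers (median 1.2) and 5 of 12 endothelial genes (median 0.60) were positive. Their part in the result was not tested. The term was -2.76 ± 0.27 for Sfrp4 (limma, adjusted p 3.85e-06), -1.37 ± 0.33 for Dkk2 (0.012), -1.16 ± 0.22 for Frzb (0.00226) and -0.89 ± 0.15 for Sfrp2 (8.48e-04). For Sfrp1 it was -0.55 ± 0.21 and did not pass (adjusted p 0.113), although it passed after cyclic loess at -0.87 (adjusted p 0.0102). Dkk3 (-0.26 ± 0.17, 0.37), Dkk1 (0.34 ± 0.19, 0.297), Sfrp5 (0.17 ± 0.17, 0.604) and Wif1 (0.05 ± 0.16, 0.894) did not pass.

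Each subset was then compared between the tissues. Which subset carried the tissue difference of a gene was not tested. Between PDPN- cells, 3 members passed against 9.61% of all genes (827 higher and 972 lower in lymph node, median -0.01; median of the members -0.01). Sfrp4 was higher in lymph node PDPN- cells by 2.31 ± 0.19 (limma, adjusted p 5.62e-07) and Sfrp2 by 0.65 ± 0.11 (6.45e-04). Sfrp1 was lower there by a small margin (-0.51 ± 0.15, adjusted p 0.0461), a call that ended with 2 alternatives, at adjusted p 0.0725 after cyclic loess and 0.0683 with a trended and robust prior, and in 9 of the 15 fits that left out an array (adjusted p up to 0.195). All 7 fibroblast markers were also higher in lymph node than in thymus PDPN- cells, with list means of 7.87 to 7.92 against 5.84 to 6.17. T lineage genes were lower there in 10 of 11 cases and thymic epithelial genes in 9 of 12. The part of these lists in the Sfrp4 and Sfrp2 differences was not tested. In sorted bulk RNA, fewer cells of a type and less RNA per cell cannot be told apart.

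Between PDPN+BP3- cells, 3 members passed, Sfrp1 again among them, and all were lower in lymph node than in thymus. The median of the members was -0.24. Over all genes 17.1% passed (2215 higher and 990 lower, median 0.04). The split was 1332 and 1584 after cyclic loess and 1381 and 1150 without thymus PDPN+BP3- replicate 1. Dkk2 was lower, with a difference of -1.38 ± 0.24 (limma, adjusted p 5.45e-04), Frzb with -1.36 ± 0.16 (1.14e-05) and Sfrp1 with -1.06 ± 0.15 (1.02e-04), and the arrays did not overlap for any of them. Sfrp4 (-0.45 ± 0.19, adjusted p 0.125), Sfrp2 (-0.24 ± 0.11, 0.155) and Dkk3 (-0.21 ± 0.12, 0.263) pointed the same way without passing. All 3 of these passed after cyclic loess (-0.70, -0.455 and -0.45), and Sfrp4 and Sfrp2 passed with arrays centred on their median (-0.55 and -0.34). Sfrp4 also passed without lymph node PDPN+BP3- replicate 1 (-0.63, adjusted p 0.047). In the same comparison 9 of 11 T lineage genes and 8 of 12 thymic epithelial genes were lower in lymph node, while 7 of 12 endothelial genes and 5 of 8 pericyte markers were higher. Endothelial list means were 4.05 to 4.43 on the lymph node arrays and 3.28 to 3.42 on the thymus arrays, and the part of these lists in the result was not tested.

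What goes with BP3 was asked among podoplanin-positive lymph node cells, and here the family divided. Against PDPN+BP3- cells, 4 members were lower in PDPN+BP3+ cells and 2 higher, with a median of -0.14, and 16.2% of all genes passed (1589 higher and 1449 lower, median 0.01). Sfrp4 was lower, with a difference of -4.33 ± 0.19 (limma, adjusted p 9.22e-11), Dkk2 with -2.82 ± 0.24 (1.93e-07), Sfrp1 with -0.99 ± 0.15 (1.53e-04) and Dkk3 with -0.95 ± 0.12 (1.51e-05). Frzb was higher by 1.12 ± 0.16 (6.41e-05) and Sfrp2 by 0.45 ± 0.11 (0.00654). For all 6 the arrays of the groups were fully apart. Wif1 also had its PDPN+BP3+ arrays above the PDPN+BP3- arrays, but its difference of 0.23 ± 0.11 did not pass (adjusted p 0.217). All 7 fibroblast markers were lower and 4 of 8 pericyte markers higher in PDPN+BP3+ cells, and Pdpn itself averaged 8.79 against 8.16. Of the 12 endothelial genes 8 fell short of their PDPN+BP3- level and 1 exceeded it at the threshold, with list means of 3.48 to 3.71 against 4.05 to 4.43. The part of these in the result was not tested.

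Set against PDPN- cells of the lymph node, PDPN+BP3+ cells had 4 members higher and 1 lower, with a median of 0.54 and 27.3% of all genes passing (3013 higher and 2105 lower, median 0.00). These are the same PDPN- arrays as in the PDPN+BP3- comparison. Of the pericyte markers 7 of 8 were lower and 1 higher (median -2.20), and of the fibroblast markers 3 of 7 were higher and 0 lower (median 0.30). Sfrp2 was higher by 5.44 ± 0.11 (limma, adjusted p 5.03e-15), Sfrp1 by 3.49 ± 0.15 (3.32e-11), Frzb by 1.26 ± 0.16 (1.14e-05) and Dkk3 by 0.57 ± 0.12 (0.00147). Sfrp4 was lower, with a difference of -1.25 ± 0.19 (9.33e-05). Dkk2 differed by 0.54 ± 0.24 and did not pass (adjusted p 0.108). But it passed without lymph node PDPN+BP3+ replicate 3, the lowest of its group (0.82, adjusted p 0.0124). It also passed without lymph node PDPN- replicate 2, the highest of its group (0.78, 0.0241), and with a replicate block (0.54, 0.0458).

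Compared with thymus PDPN+BP3- cells, lymph node PDPN+BP3+ cells had 4 members lower and 1 higher (median -0.24), against 28.6% of all genes (3638 higher and 1710 lower, median 0.04, or 2290 and 2539 after cyclic loess). Tissue and BP3 cannot be told apart in this comparison. All 7 fibroblast markers, 9 of 11 T lineage genes and 7 of 12 thymic epithelial genes were lower in the lymph node cells and 6 of 8 pericyte markers higher, and their part was not tested. Sfrp4 was lower, with a difference of -4.78 ± 0.19 (limma, adjusted p 1.60e-11), Dkk2 with -4.20 ± 0.24 (9.62e-10), Sfrp1 with -2.04 ± 0.15 (2.53e-08) and Dkk3 with -1.16 ± 0.12 (1.04e-06). Frzb (-0.24 ± 0.16, adjusted p 0.288) and Sfrp2 (0.22 ± 0.11, 0.152; -0.03 after cyclic loess) did not pass. Wif1 was higher by 0.33 ± 0.11 (adjusted p 0.0394) at signals of 2.13 to 2.67, a call lost with arrays centred on their median (0.20) and in a fit on these arrays alone (0.33, adjusted p 0.0774). The Wif1 call was also lost without thymus PDPN+BP3- replicate 2 (0.25), without thymus PDPN- replicate 2 (0.33) and without any 1 of the PDPN+BP3+ arrays (0.305 to 0.345).

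**Figure D3:**
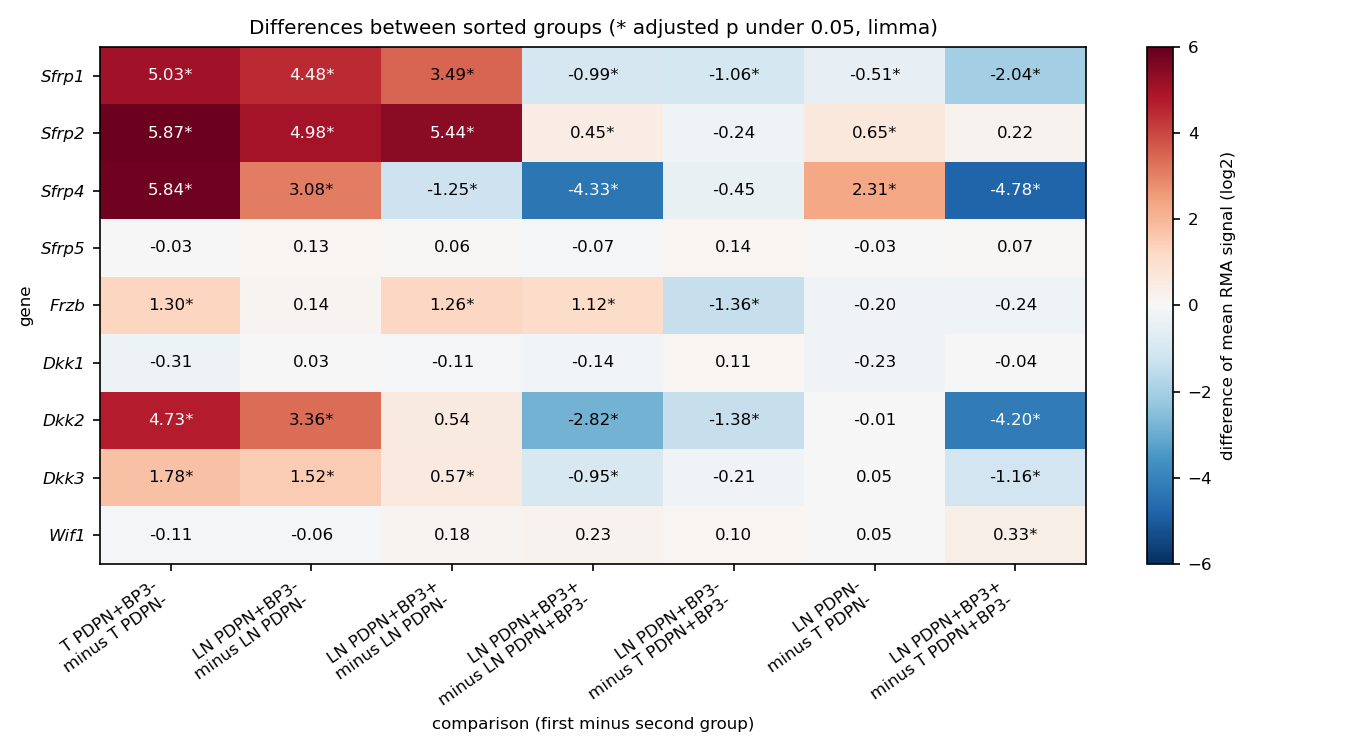
Difference of mean RMA signal (log2; numbers and colour) for each gene (rows) in the 7 pairwise comparisons (columns, first minus second group; T, thymus; LN, lymph node), with an asterisk where the adjusted p is under 0.05. Sfrp2 is strongly positive in all 3 comparisons with PDPN- cells, whereas Sfrp4 turns from 3.08 to -1.25 and Dkk2 from 3.36 to 0.54 between the PDPN+BP3- and PDPN+BP3+ columns of the lymph node.

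The genes whose pattern was most like each variable member were ranked by Pearson correlation over the 15 arrays among 16428 other genes. Predicted genes, olfactory and vomeronasal receptors and small RNAs were left out. These arrays fall into 5 sorted groups, so the values describe likeness of pattern across the sort and nothing more. For Sfrp2 they were Pdpn (r = 0.995, Spearman 0.876), the scavenger receptor gene Scara3 (0.994 and 0.81) and the membrane glycoprotein gene Gpm6b (0.992 and 0.895), and Pdpn was the antigen on which the cells were sorted. For Sfrp1 they were the matrix protease Adamts5 (0.988 and a Spearman value of 1), the matrix protein Fbln2 (0.987 and 0.889) and Lrrc55 (0.985 and 0.879). For Sfrp4 they were the adhesion protein Flrt2 (0.992 and 0.911), the transcription factor Klf4 (0.984 and 0.96) and the actin-binding filamin Flnc (0.984 and 0.957). For Dkk2 they were the urokinase gene Plau (0.989 and 0.889), the matrix protein Smoc2 (0.986 and 0.892) and the hyaluronan link protein Hapln1 (0.986 and 0.91). By Spearman value the genes named ranked 57 to 307.5 for Sfrp2, 1 to 156 for Sfrp1, 4.5 to 30 for Sfrp4 and 17 to 32 for Dkk2. The order of the groups was not shared in every case. Flrt2 averaged 8.82 in lymph node and 8.62 in thymus PDPN+BP3- cells, the reverse of Sfrp4. Pdpn and Gpm6b were highest in thymus PDPN+BP3- cells (9.11 and 8.36), whereas Sfrp2 was highest in lymph node PDPN+BP3+ cells. Fbln2 (3.73 against 3.38) and Lrrc55 (2.95 against 2.74) were higher in lymph node than in thymus PDPN- cells, the reverse of Sfrp1.

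A further list held 10 genes named as extracellular Wnt inhibitors, and whether each acts only as an inhibitor was not examined. Of these, 3 rose from PDPN- to PDPN+BP3- cells in thymus, and 4 were higher and 1 lower in lymph node. In PDPN+BP3+ against PDPN+BP3- cells 2 were higher and 2 lower. Median differences were 0.17, 0.08 and 0.06. For these and the further Wnt lists, the shares of all genes called in either direction in these 3 comparisons are the 28.5%, 23.1% and 16.2% given above. Tpbg, a membrane glycoprotein that restrains signalling through Lrp6, averaged 7.03 ± 0.25 (thymus) and 5.97 ± 0.04 (lymph node) where the gate was PDPN+BP3-, and 2.77 to 3.89 in the other groups. Cthrc1, a secreted collagen-repeat protein that binds Wnt and Frizzled proteins, averaged 6.70 ± 0.41 and 4.31 ± 0.39 in the same cells and 2.39 to 2.77 elsewhere. Both were lower in PDPN+BP3+ than in PDPN+BP3- cells (Tpbg -2.13 ± 0.14, limma, adjusted p 9.90e-09; Cthrc1 -1.54 ± 0.21, 3.77e-05).

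Sostdc1 and Draxin ran the other way. Sostdc1, a secreted antagonist of Wnt and BMP signals, averaged 6.68 ± 0.29 in PDPN+BP3+ and 4.47 ± 0.23 in PDPN+BP3- cells of the lymph node and 2.17 to 2.34 in the other groups. It was 2.20 ± 0.14 higher in PDPN+BP3+ than in PDPN+BP3- cells (limma, adjusted p 7.09e-09). Draxin, a secreted guidance protein that can bind Lrp6, averaged 5.20 ± 0.28 in PDPN+BP3+ cells and 2.70 to 3.04 elsewhere, a difference of 2.35 ± 0.14 from PDPN+BP3- cells (4.31e-09). Igfbp4, a binding protein of insulin-like growth factors that also contacts Lrp6, was higher in all PDPN+ groups, at means of 10.09 to 10.50 against 8.03 and 8.56. Apcdd1, a membrane-bound inhibitor, averaged 5.87 to 7.20 over the 5 groups. Its lowest mean was that of lymph node PDPN+BP3- cells, against 6.99 in PDPN- cells of that tissue. In thymus it averaged 6.87 in PDPN+BP3- and 7.20 in PDPN- cells. Its interaction term was -0.78 ± 0.24 (limma, adjusted p 0.0395).

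**Figure D4:**
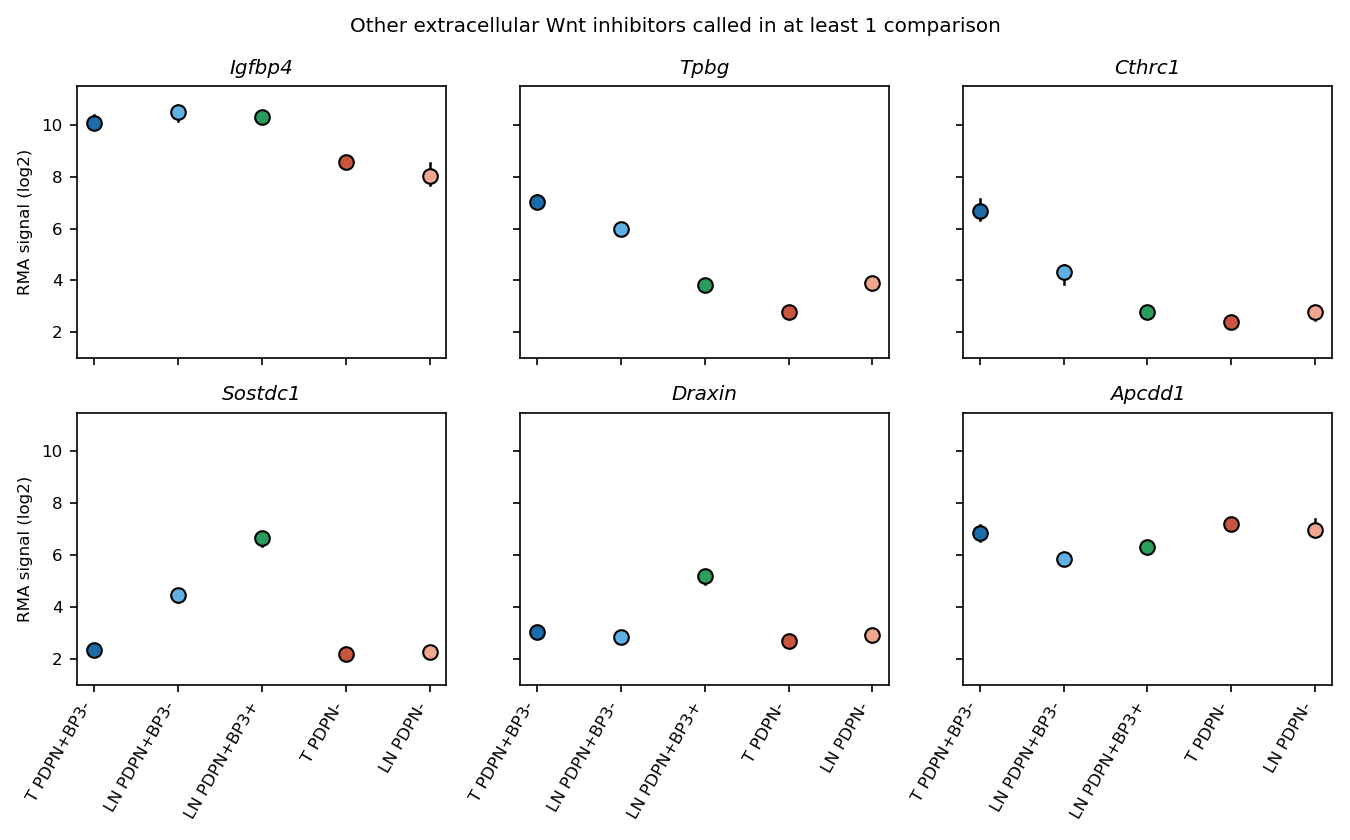
RMA signal (log2, vertical axis) of 6 further genes listed as extracellular Wnt inhibitors, by sorted group (T, thymus, and LN, lymph node). Points are means of 3 arrays and lines run from the lowest to the highest array. Tpbg and Cthrc1 are high in PDPN+BP3- groups, whereas Sostdc1 and Draxin are highest in lymph node PDPN+BP3+ cells.

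Among the ligands these antagonists can meet, 7 of 19 Wnt genes were higher in PDPN+BP3- cells of the thymus (median 0.16) and 5 of 19 in the lymph node (median -0.01), with 0 lower in either, and 5 of 19 is close to the 23.1% of all genes. In PDPN+BP3- cells Wnt5a averaged 6.21 ± 0.43 (thymus) and 6.94 ± 0.09 (lymph node), in PDPN+BP3+ cells 6.34 ± 0.15, and in PDPN- cells it averaged 3.45 and 3.63. Wnt2b was highest in lymph node PDPN+BP3- cells (7.10 ± 0.14) and lower in PDPN+BP3+ cells (4.98 ± 0.04; difference -2.11 ± 0.20, limma, adjusted p 6.25e-07). Of 4 R-spondins, secreted enhancers of Wnt signalling, Rspo1 and Rspo3 were higher in all PDPN+ groups than in PDPN- cells of their tissue, with Rspo3 at 5.14 to 5.46 against 2.63 and 2.94.

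Of 10 Frizzled receptors, 3 were higher and 3 lower in PDPN+BP3- cells of the thymus (median 0.09), and 3 were higher and 2 lower in the lymph node (median 0.18). Fzd2 was higher by 2.47 ± 0.14 in thymus (limma, adjusted p 6.73e-10) and 2.55 ± 0.14 in lymph node (6.73e-10), and Fzd1 by 2.61 ± 0.14 (3.43e-10) and 2.31 ± 0.14 (2.40e-09). Fzd4, in contrast, was lower, with a difference of -1.93 ± 0.13 (5.15e-09) and -0.72 ± 0.13 (4.51e-04). Of 8 co-receptor and Dickkopf receptor genes, 3 were higher and 1 lower in the thymus comparison (median 0.21) and 5 higher and 0 lower in lymph node (median 0.64). Lrp5, a Dickkopf target, was the lower 1 in thymus PDPN+BP3- cells (5.81 ± 0.12 against 7.42 ± 0.15). Lrp6, also a Dickkopf target, did not pass in that comparison (-0.01 ± 0.16, limma, adjusted p 0.974). Kremen1, a membrane partner of Dickkopf proteins, averaged 6.40 ± 0.31 against 5.61 ± 0.31 in thymus and 5.45 ± 0.30 against 4.49 ± 0.19 in lymph node, and was higher in PDPN+BP3- cells of each (adjusted p 0.00471 and 0.00118). Of 5 R-spondin receptor and ligase genes, 1 was higher and 2 lower in thymus and 1 higher and 1 lower in lymph node.

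Of 13 measured intracellular transducers, 1 was higher and 6 lower in thymus PDPN+BP3- cells (median -0.40) and 1 higher and 1 lower in the lymph node comparison (median 0.03). Of 15 measured genes often used as beta-catenin targets, 5 were higher and 1 lower in thymus (median 0.29) and 4 higher and 2 lower in lymph node PDPN+BP3- cells (median 0.15). In PDPN+BP3+ against PDPN+BP3- cells 7 were higher and 2 lower (median 0.28). These included the feedback inhibitor Axin2 (5.91 ± 0.01 against 5.08 ± 0.14, limma, adjusted p 2.46e-05), the cyclin Ccnd1 (9.67 ± 0.09 against 7.99 ± 0.35, 1.63e-06) and the matricellular gene Ccn4 (6.47 ± 0.08 against 5.18 ± 0.19, 6.91e-06). The targets respond to other pathways too, and no activity of the Wnt pathway was measured.

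Some frizzled-related proteins are also known to bind tolloid-type procollagen proteases. So 6 genes were read, those of such proteases and their partners and the metalloprotease gene Adam10. In thymus 5 were higher and 1 lower in PDPN+BP3- cells (median 1.18), in lymph node 4 higher and 1 lower (median 0.77), and 4 were lower and 0 higher in PDPN+BP3+ than in PDPN+BP3- cells (median -0.39). The lower 1 in thymus was Adam10 (-0.56 ± 0.14, limma, adjusted p 0.00742), whose interaction term was 0.01 ± 0.20 (0.987). Pcolce2, an enhancer of procollagen processing, averaged 7.89 ± 0.29 and 7.63 ± 0.71 in PDPN+BP3- cells of thymus and lymph node, 3.64 ± 0.56 in PDPN+BP3+ cells and 2.61 and 3.42 in PDPN- cells. Bmp1, the main tolloid-type protease, was higher in PDPN+BP3- cells by 1.08 ± 0.13 in thymus (limma, adjusted p 5.68e-06) and 0.88 ± 0.13 in lymph node (6.24e-05).

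**Figure D5:**
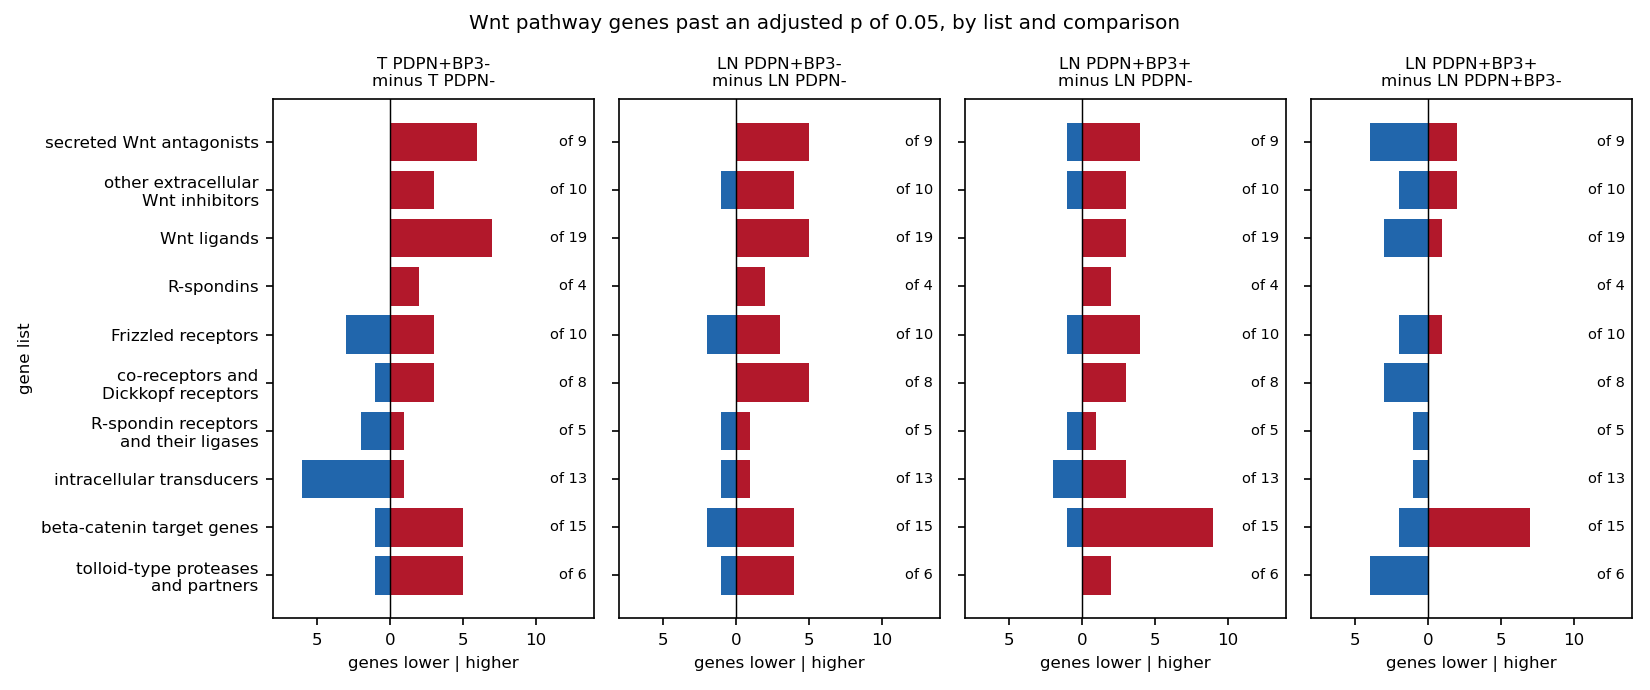
Number of genes higher (red, right of 0) or lower (blue, left of 0) at an adjusted p under 0.05 in 4 comparisons, for each gene list (rows), with the number measured at the right edge of each panel (T, thymus; LN, lymph node). The secreted antagonists are higher in 6 and 5 of 9 cases in PDPN+BP3- cells of thymus and lymph node, and 4 of 9 are lower in PDPN+BP3+ than in PDPN+BP3- cells of the lymph node.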

How the data were processed

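Mouse Gene 1.1 ST arrays were hybridized with amplified RNA from 15 samples. The authors deposited log2 signals made with RMA in the Affymetrix Expression Console, per the submitters' processing notes, whose versions the sources used here do not give. Base 2 was inferred from the range, 1.07 to 12.07. RMA places the probe values of all arrays on 1 distribution before they are summarized, and it compresses low signals. The deposited signals still differed between arrays, with medians from 3.58 to 3.885. Differences given here are differences of signal. Precision is limited by the number of arrays. Each p-value sets a difference against the spread between these pools within groups, estimated over all 5 groups with a prior drawn from all genes.

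Of 24758 transcript clusters, 20844 had 1 symbol in the platform annotation, 1735 several and 2179 none. For 1230 genes with several clusters the highest mean was kept, leaving 18718 genes. With limma 3.58.1 in R 4.3.3, 1 mean per group was fitted over all 15 arrays (no trend, 10 residual and 5.50 prior degrees of freedom), and p-values were adjusted by Benjamini-Hochberg over all genes per comparison, with a threshold of 0.05. The 7 pairwise comparisons share groups and were not compared by their calls. The script was tested on simulated data.

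Named were the 9 members, the sort antigens, up to 4 genes with the smallest adjusted p of each Wnt list in a comparison, and the 3 most alike genes of members whose means span at least 2. Members and lists were chosen with earlier results of these data known. Of the marker lists, 0 of 4 measured B cell genes passed in any comparison, and among 9 myeloid genes 0 were higher and 1 lower in thymus PDPN+BP3- than in PDPN- cells, and 2 higher and 1 lower in lymph node. Alternatives were cyclic loess, median centring, a filter on low signals, a trended and robust prior, fits on the compared groups only, averaged rows, a replicate block and leaving out each array.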

Additional observations from a re-analysis of the deposited data

Results flagged for a closer look

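For 4 members the step from PDPN- to PDPN+BP3- cells was unequal in the 2 tissues by the interaction term of the limma fit (lymph node minus thymus, n = 3 arrays a group). The term was -2.76 for Sfrp4, -1.37 for Dkk2, -1.16 for Frzb and -0.89 for Sfrp2. All 4 terms passed the threshold under every alternative in which the gene was tested. Outliers within a group were not looked for, since each group has 3 arrays.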

How the results depend on the processing

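Of 72 pairs of member and comparison 37 passed, and 35 of these kept their sign and passed under every alternative in which the gene was tested. The exceptions were Sfrp1 between PDPN- cells and Wif1 between lymph node PDPN+BP3+ and thymus PDPN+BP3- cells. The filter on low signals kept 10660 genes and 5 of the members, leaving out Frzb, Sfrp5, Dkk1 and Wif1. The number of members called between the PDPN+BP3- cells of the tissues, 3, became 6 after cyclic loess and 5 with arrays centred on their median; the cause was not tested. The number of genes called in either direction stayed within 0.676 to 1.231 times its value under all alternatives, but its split into higher and lower did not. Centring arrays on their median moved the median of all genes from 0.04 to -0.09 between lymph node PDPN+BP3+ and thymus PDPN+BP3- cells, where 2770 genes were then higher and 2792 lower. The split became 1780 and 1496 between the PDPN+BP3- cells and 1339 and 1016 for the interaction. Whether the replicate numbers pair the arrays cannot be settled from these values. Deviations of same-numbered arrays correlated at -0.17 to 0.29 (median -0.01 over 30 pairs). Those of different-numbered arrays correlated at -0.31 to 0.22 (median 0.01 over 60 pairs). Of 15 arrays 8 correlated best with their own number. Same-numbered lymph node PDPN+BP3- and PDPN+BP3+ arrays correlated at 0.06 to 0.15, and same-numbered thymus PDPN+BP3- and PDPN- arrays at -0.17 to -0.14. With a replicate block, 5313 genes passed in the thymus comparison in place of 5337, and 1 further member call was made (Dkk2, PDPN+BP3+ against PDPN- cells, adjusted p 0.0458). Some differences that passed in neither fit changed sign. After cyclic loess they were Dkk2 between PDPN- cells (0.0609), and Sfrp2 (-0.0343) and Dkk1 (4e-04) between lymph node PDPN+BP3+ and thymus PDPN+BP3- cells. With centred arrays they were Sfrp5 in thymus (0.02), Dkk1 in lymph node PDPN+BP3- against PDPN- (-0.015), Sfrp5 in PDPN+BP3+ against PDPN- (-0.0167) and against thymus PDPN+BP3- (-0.065), Wif1 between the PDPN+BP3- cells (-0.0033) and the Wif1 interaction (-0.0483). Leaving out 1 array at a time changed the sign of some as well, with these ranges: Sfrp5 in thymus PDPN+BP3- against thymus PDPN- (-0.13 to 0.03), Dkk1 in lymph node PDPN+BP3- against lymph node PDPN- (-0.06 to 0.14), Wif1 in lymph node PDPN+BP3- against lymph node PDPN- (-0.13 to 0.0667), Sfrp5 in lymph node PDPN+BP3+ against lymph node PDPN- (-0.0083 to 0.10), Dkk2 in lymph node PDPN- against thymus PDPN- (-0.24 to 0.14), Dkk3 in lymph node PDPN- against thymus PDPN- (-0.0133 to 0.085), Sfrp5 in lymph node PDPN+BP3+ against thymus PDPN+BP3- (-0.0017 to 0.16), Dkk1 in lymph node PDPN+BP3+ against thymus PDPN+BP3- (-0.0933 to 0.0267) and Wif1 (interaction) (-0.03 to 0.17).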

Other observations

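Of 15 measured genes often read as beta-catenin targets, 1 was higher and 5 lower in lymph node than in thymus PDPN+BP3- cells (median -0.23), where 17.1% of all genes passed. Between PDPN- cells 3 were higher and 3 lower (median -0.03), where 9.61% passed. Tnfrsf19, a receptor of the tumour necrosis factor family, averaged 7.23 ± 0.24 (SD, n = 3) in PDPN+BP3- cells of the thymus, where the 4 remaining groups had 2.74 to 2.94. Lgr5, an R-spondin receptor that is not on the target list, averaged 4.91 ± 0.65 in the same cells and 2.16 to 2.36 elsewhere. Both were lower in lymph node than in thymus PDPN+BP3- cells (Tnfrsf19 -4.28 ± 0.14, limma, adjusted p 5.85e-12; Lgr5 -2.61 ± 0.23, 4.94e-07). The targets and feedback inhibitors Axin2 (-1.30 ± 0.11, 3.02e-07) and Nkd2 (-2.06 ± 0.14, 3.85e-08) were lower there as well, and Bambi, an inhibitor of transforming growth factor signals, was the higher one (1.99 ± 0.17, 4.64e-07). In the same comparison 9 of 11 T lineage genes were lower and 0 higher in lymph node. Of 12 thymic epithelial genes 8 were lower and 1 higher. The part of these lists in the differences of the target genes and Lgr5 was not tested. Between PDPN- cells, Axin2 (-0.85 ± 0.11, 5.20e-05) and the transcription factor Lef1 (-2.08 ± 0.26, 4.83e-05) were lower in lymph node, and so was Nkd2 (-0.81 ± 0.14, 0.00116). Id2 (1.74 ± 0.17, 3.95e-06), Ccn5 (1.14 ± 0.20, 0.00121) and Ccn4 (1.003 ± 0.15, 2.26e-04) were higher there. Lef1 is also expressed by thymocytes, and 10 of 11 T lineage genes were lower in lymph node than in thymus PDPN- cells; their part in the Lef1 difference was not tested.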
